A study of Mus musculus with 37 samples.

Results

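Maternal deletion of Smchd1 was examined in tailbuds of mouse embryos with 8 or 9 somites, 10 of the 37 tailbud RNA-seq libraries of the series, chosen by the somite number in the sample labels. The embryos were about 8 to 8.5 days old and were F1 offspring of C57BL/6 mothers and Cast fathers, and the tissue was everything caudal to a cut placed a short way behind the last somite. The 6 Smchd1 wt embryos (3 with 8 somites, 3 with 9) were Smchd1 fl/+ and came from Smchd1 fl/fl mothers whose label for the Cre transgene is MMTV-Cre +/+. The 4 Smchd1 matdel embryos (2 with 8 somites, 2 with 9) were Smchd1 del/+ and came from Smchd1 del/fl mothers carrying the transgene, MMTV-Cre T/+. MMTV-Cre acts in the growing oocyte, so the oocyte was without Smchd1 and the embryo had its paternal copy alone. The loss of the maternal supply and the presence of a single copy in the embryo therefore cannot be told apart. The comparison asks which autosomal genes, Hox genes among them, differ between tailbuds with and without the maternal supply in this middle window of stages.

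SMCHD1 is a chromatin protein related to the SMC family that takes part in X inactivation, in imprinting and in silencing of gene clusters such as the clustered protocadherins. Protein laid down by the oocyte acts in the first cleavages, before the embryo makes its own. The tailbud holds neuromesodermal progenitors, which feed the neural tube and the presomitic mesoderm under Wnt, FGF and Notch signals, and it turns on Hox genes one after another from the anterior to the posterior end of each cluster. Imprinted genes are expressed from 1 parental copy.

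The promoters of 3 genes are shown because the results below turn on them: Smchd1 as the deleted gene, Etnk2 as the gene with the largest excess in Smchd1 matdel relative to its error, and Peg12 as an imprinted gene with higher levels in every window of stages. Each is 250 bases before to 50 bases after the RefSeq start on GRCm38.p6, 5′ to 3′ on the gene's strand, with CG dinucleotides in capitals, and all 3 starts matched the gene starts in the count table. Smchd1 is at chr17:71475294-71475593 on the minus strand, Etnk2 at chr1:133363322-133363621 on the plus strand and Peg12 at chr7:62464461-62464760 on the minus strand.
Smchd1: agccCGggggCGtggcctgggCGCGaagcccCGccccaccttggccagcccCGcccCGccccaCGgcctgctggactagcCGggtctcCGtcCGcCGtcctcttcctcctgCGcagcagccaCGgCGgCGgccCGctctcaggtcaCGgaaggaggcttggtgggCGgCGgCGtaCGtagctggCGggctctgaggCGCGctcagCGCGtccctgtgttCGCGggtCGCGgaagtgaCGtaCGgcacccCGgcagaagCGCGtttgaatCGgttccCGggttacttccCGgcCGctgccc
Etnk2: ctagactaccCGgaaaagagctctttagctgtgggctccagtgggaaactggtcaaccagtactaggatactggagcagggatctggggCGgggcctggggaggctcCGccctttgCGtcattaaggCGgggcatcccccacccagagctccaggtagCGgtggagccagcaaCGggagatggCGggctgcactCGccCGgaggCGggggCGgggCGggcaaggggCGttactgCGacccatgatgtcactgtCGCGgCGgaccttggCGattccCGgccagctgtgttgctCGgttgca
Peg12: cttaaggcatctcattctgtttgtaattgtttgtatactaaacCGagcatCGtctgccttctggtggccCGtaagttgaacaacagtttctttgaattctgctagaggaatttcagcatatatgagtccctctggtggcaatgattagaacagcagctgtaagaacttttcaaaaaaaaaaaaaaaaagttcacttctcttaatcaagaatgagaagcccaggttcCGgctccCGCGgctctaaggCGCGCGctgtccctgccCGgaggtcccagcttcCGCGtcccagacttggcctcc
Their 40, 21 and 12 CG dinucleotides stand against a median of 7 over the 32851 RefSeq promoters of the same length. As many or more were found in 3.91%, 24.8% and 39.6% of those promoters.

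Total counts ran from 9659259 to 80579115 in Smchd1 wt and from 11601810 to 19381814 in Smchd1 matdel, with 95.1 to 96.1% of them on autosomal genes. Levels below are counts per 1000000 autosomal counts (CPM) after scaling by trimmed means. Tailbud markers were present in every library, T (brachyury) at 169 to 328 CPM and the presomitic regulator Tbx6 at 27.1 to 50.1 CPM. All 4 Smchd1 matdel embryos were labelled female, whereas 3 of the 6 Smchd1 wt embryos were male, and neither the litter nor the kit (stranded or not) of each library is given in the sources used here, so these cannot be told apart from genotype where they coincide with it. The 8-somite Smchd1 wt replicate 1 had 41 of 10890 genes more than 1 log2 unit above every other library, endoderm genes such as Apob and Cubn among them. Genes as far below every other library numbered 11 in the 8-somite Smchd1 wt replicate 2, 10 in the 9-somite Smchd1 matdel replicate 2 and 7 in the 8-somite Smchd1 matdel replicate 2, and 0 to 3 in the others. The last of the named embryos had low posterior Hox and allantois genes, described below. The leading axis of variation over the 10 embryos carried 37.9% of the variance and was led by the endoderm genes Apoa4 and Apoa1, with both genotypes at both of its ends.

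Smchd1 itself (GRCm38 chr17:71344489-71475343, minus strand) measured 148, 215 and 159 CPM in the 8-somite Smchd1 wt embryos and 149, 172 and 168 CPM in the 9-somite ones. In Smchd1 matdel it measured 85.9 and 104 CPM at 8 somites and 66.8 and 101 CPM at 9 somites. No Smchd1 matdel embryo reached the lowest Smchd1 wt embryo, and the means were 168 ± 24.7 CPM (SD, n = 6) and 89.4 ± 17.0 CPM (SD, n = 4). The log2 fold change, with somite number as a factor, was -0.92 (SE 0.14, 95% interval -1.22 to -0.61), or 0.530 of the Smchd1 wt level. Its adjusted p over all autosomal genes was 0.206 in edgeR's quasi-likelihood test on these 10 embryos. In a fit over all 37 embryos, which estimated the spread from more libraries, the 8-9-somite effect had an adjusted p of 0.00397. The deposited counts do not separate the remaining paternal transcript from any transcript of the deleted copy.

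Of 14568 autosomal genes tested, 0 (0.0%) passed an adjusted p of 0.05 in edgeR, 193 (1.32%) had an unadjusted p under 0.05, and DESeq2 called 2, Etnk2 and Smchd1. The 193 split into 100 higher (0.686%) and 93 lower (0.638%) in Smchd1 matdel, and the median log2 fold change over all genes was -0.01. An unadjusted p under 0.05 would mark a share of about 0.05 of genes if none differed, more than the 1.32% found. All 4 Smchd1 matdel embryos lay above all 6 Smchd1 wt embryos for 21 genes (0.144%) and below them for 27 genes (0.185%). How many genes separate under random labels was not tested. The leading genes below were chosen by small p, so separate groups in them are not further support for a difference. The precision differed between genes: the median SE was 0.16 log2 units, and for 12775 genes (87.7%) the 95% interval lay within 1 log2 unit of no change. For 8651 genes (59.4%) it lay within 0.5 log2 units. The 24 genes described next are the 12 higher and the 12 lower with the smallest p among genes averaging at least 1 CPM, and apart from Etnk2 and Smchd1 each had an adjusted p close to 1 in this fit.

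**Figure D1:**
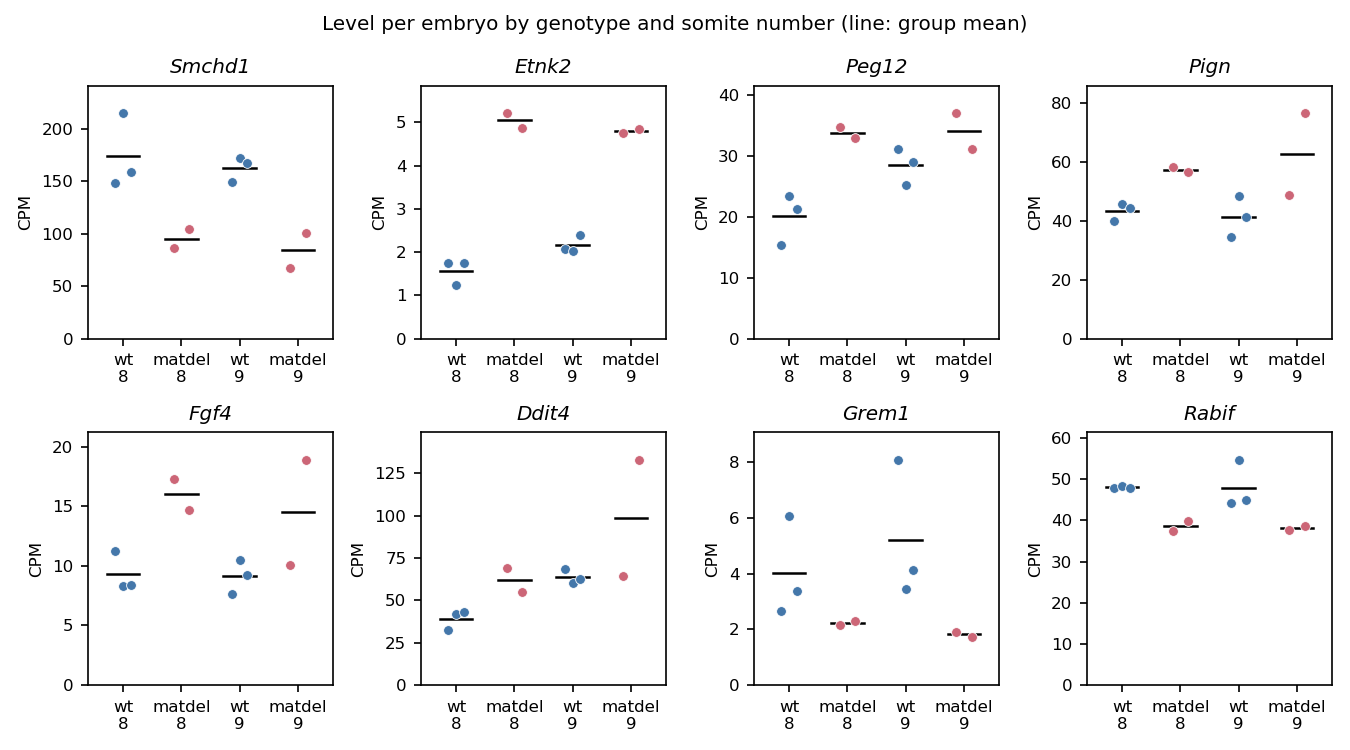
Level (CPM, y axis from 0) of 8 genes in each embryo with 8 or 9 somites, with Smchd1 wt in blue and Smchd1 matdel in red; points are embryos and lines are group means. Smchd1, Grem1 and Rabif lie lower and Etnk2 and Pign higher in all 4 Smchd1 matdel embryos than in any Smchd1 wt embryo, while Peg12, Fgf4 and Ddit4 overlap.

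Etnk2 encodes ethanolamine kinase 2, which phosphorylates ethanolamine at the start of phosphatidylethanolamine synthesis (chr1:133363572-133380336, plus strand; promoter above). It measured 1.75, 1.23 and 1.74 CPM in the 8-somite Smchd1 wt embryos and 2.08, 2.02 and 2.40 CPM in the 9-somite ones. The deleted embryos had 5.22 and 4.87 CPM at 8 somites and 4.76 and 4.84 CPM at 9 somites, so the groups were well separated and the 4 deleted embryos lay close to each other. The means were 1.87 ± 0.395 CPM (SD, n = 6) and 4.92 ± 0.200 CPM (SD, n = 4), a log2 fold change of 1.40 (SE 0.20, 95% interval 0.97 to 1.84; edgeR adjusted p = 0.186). These levels rested on 13 to 164 reads per library, the most in the deeply sequenced 9-somite Smchd1 wt replicate 1. Among the 7 female embryos alone the log2 fold change was 1.26 (SE 0.26).

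Pign encodes an enzyme that adds ethanolamine phosphate to glycosylphosphatidylinositol anchors (chr1:105518422-105663677, minus strand). Its levels were 39.7, 45.7 and 44.5 CPM in 8-somite Smchd1 wt and 34.4, 48.4 and 41.1 CPM in 9-somite Smchd1 wt. In Smchd1 matdel they were 58.2 and 56.5 CPM at 8 somites and 48.7 and 76.5 CPM at 9 somites. Every deleted embryo was above every Smchd1 wt embryo, the lowest by a narrow margin, and the log2 fold change was 0.51 (SE 0.14). Pqlc1, which encodes a membrane protein of the PQ-loop family, was the other gene with separate groups, with 6.90 ± 1.43 CPM (SD, n = 6) for Smchd1 wt against 10.0 ± 0.361 CPM (SD, n = 4) after deletion. Exons of Pign overlap those of the gene model Gm28403 on the same strand, so reads may have been split between them.

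Fgf4, a growth factor of the streak and tailbud, measured 11.2, 8.34 and 8.37 CPM in 8-somite Smchd1 wt and 7.59, 10.5 and 9.25 CPM in 9-somite Smchd1 wt. After deletion it measured 17.3 and 14.7 CPM at 8 somites and 10.1 and 18.9 CPM at 9 somites. Only the 9-somite Smchd1 matdel replicate 1 fell among the Smchd1 wt embryos, and the log2 fold change was 0.73 (SE 0.19). Ddit4, an inhibitor of mTORC1 that is induced by hypoxia and other stress, had a log2 fold change of 0.64 (SE 0.17). Its highest value was 133 CPM in the 9-somite Smchd1 matdel replicate 2 against 54.9 to 68.9 CPM in the other 3 deleted embryos, and without that embryo the log2 fold change was 0.42.

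Peg12, a paternally expressed imprinted gene of the Prader-Willi region (chr7:62461871-62464510, minus strand; promoter above), measured 15.4, 23.4 and 21.3 CPM in 8-somite Smchd1 wt and 31.1, 25.2 and 29.0 CPM in 9-somite Smchd1 wt. The Smchd1 matdel embryos had 34.7 and 32.8 CPM at 8 somites and 37.0 and 31.1 CPM at 9 somites. The groups were apart at 8 somites and touched at 9 somites, with a log2 fold change of 0.51 (SE 0.14). Its imprinted neighbours had smaller values, 0.24 for Ndn, 0.26 for Mkrn3, 0.11 for Magel2 and 0.05 for Snrpn.

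The other 6 genes with higher levels had log2 fold changes from 0.32 for Wnt5b, a Wnt ligand, to 1.27 for Uqcrc1, a core subunit of respiratory complex III, and in each the groups overlapped. Uqcrc1 rested on the younger embryos, with 10.3 and 4.96 CPM in 8-somite Smchd1 matdel against 1.33 to 2.20 CPM in 8-somite Smchd1 wt. Its log2 fold change was 2.14 at 8 somites and 0.33 at 9 somites (unadjusted p of the difference 0.0087), and 0.81 over both when the 8-somite Smchd1 matdel replicate 1 was left out. Esrrg, an orphan nuclear receptor, stood at 0.98, Tnfsf9, a ligand of the TNF family, at 0.57, Dedd2, a death-effector-domain protein, at 0.50, and Cox16, an assembly factor of cytochrome oxidase, at 0.34.

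Among the genes with lower levels, 7 had separate groups, Smchd1 included. Grem1, a secreted antagonist of BMP ligands, measured 2.66, 6.07 and 3.37 CPM in 8-somite Smchd1 wt and 8.09, 3.43 and 4.13 CPM in 9-somite Smchd1 wt. The 4 deleted embryos had 2.15 and 2.31 CPM at 8 somites and 1.89 and 1.74 CPM at 9 somites. The deleted embryos were tightly grouped just below the lowest Smchd1 wt embryo, and the log2 fold change was -1.20 (SE 0.33). Rabif, which binds Rab GTPases, measured 47.9, 48.4 and 47.8 CPM in 8-somite Smchd1 wt, 44.1, 54.8 and 44.8 CPM in 9-somite Smchd1 wt, 37.5 and 39.9 CPM in 8-somite Smchd1 matdel, and 37.6 and 38.6 CPM in 9-somite Smchd1 matdel. That is a small but evenly shared difference, a log2 fold change of -0.32 (SE 0.09).

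The others with separate groups were Dnajb12, a co-chaperone of the endoplasmic reticulum, at -0.32, Mpzl3, an immunoglobulin-domain membrane protein, at -0.46, Fam13a, a RhoGAP-domain protein, at -0.47, and the integrin subunit gene Itgb3 at -1.30, all as log2 fold changes. Mbnl1, a splicing regulator, measured 26.2, 34.0 and 35.1 CPM against 13 and 15 CPM at 8 somites, a log2 fold change of -1.18. At 9 somites it measured 19.4, 25.6 and 26.4 CPM against 19.1 and 24.7 CPM, with overlapping groups, and the unadjusted p of the difference between the stages was 0.0039. Whamm, an activator of actin branching, stood at -0.92, the noncoding or predicted genes Gm10226 and E330034L11Rik at -1.16 and -1.05. Lyz2, a lysozyme of macrophages, was at 0 counts in all 4 Smchd1 matdel libraries, but 154 of its 184 counts in Smchd1 wt came from the 8-somite replicate 1. The 9-somite Smchd1 wt replicate 3 was also at 0 counts, so the groups overlapped. In pooled counts, against a floor of 3 counts over the deleted group, Lyz2 was at least 24.4-fold lower, and at least 4.39-fold lower without the 8-somite Smchd1 wt replicate 1. These bounds take no account of the spread between embryos.

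Exons of 7 of the 24 overlap another gene of the table, for which reads could have been counted to either: Pign, Dedd2, Mpzl3, Tnfsf9, Fam13a, Whamm and Cox16.

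The same genes were read in the embryos of the other stages, which did not enter their choice: 8 Smchd1 wt and 7 Smchd1 matdel with 6 or 7 somites, and 7 and 5 with 10 or 11 somites. Of the 12 genes higher at 8-9 somites, 10 were also higher at 6-7 somites and 10 at 10-11 somites, against 52.5% and 56.3% of all genes higher at 8-9 somites. The 9 higher in both windows were Etnk2, Fgf4, Ddit4, Pign, Peg12, Uqcrc1, Esrrg, Dedd2 and Tnfsf9. Of the 12 lower genes, 9 were lower at 6-7 somites (59.5% of all such genes) and 6 at 10-11 somites (53.2%), and Smchd1, Rabif, Lyz2 and Mbnl1 were lower in both.

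Peg12 had log2 fold changes of 0.53 (SE 0.12) at 6-7 somites and 0.40 (SE 0.13) at 10-11 somites, and all 12 Smchd1 matdel embryos of the other stages lay above the Smchd1 wt mean of their somite number. Smchd1 stood at -0.63 (SE 0.11) and -0.74 (SE 0.13), with 0 of those 12 embryos above that mean. Etnk2 had 1.26 (SE 0.33) at 6-7 somites but 0.31 (SE 0.35) at 10-11 somites, above the mean in 9 of 12. Grem1 went the other way at 6-7 somites, at 0.73 (SE 0.53). In the fit over all 37 embryos, 0 of 15704 genes had an 8-9-somite effect that passed the adjusted test of a difference from the mean effect of the other windows, and 185 (1.18%) had an unadjusted p under 0.05; DESeq2 also called 0.

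**Figure D2:**
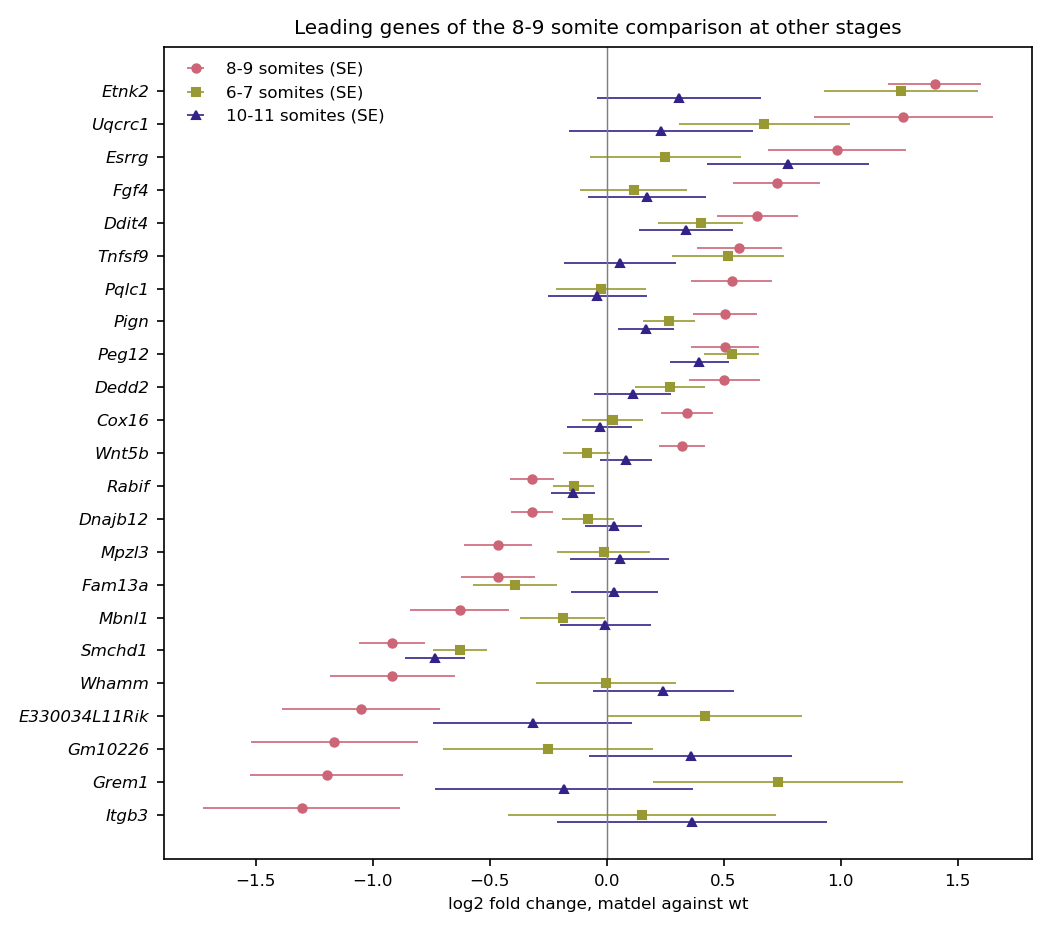
Log2 fold change (Smchd1 matdel over Smchd1 wt, x axis, bars are 1 SE) of the leading genes at 8-9 somites (circles), 6-7 somites (squares) and 10-11 somites (triangles), without Lyz2. Smchd1 is below 0 and Peg12 above 0 by more than 1 SE in all 3 windows, while Grem1 changes sign at 6-7 somites.

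Of 39 Hox genes, 35 had enough counts to test, and 18 of them had a positive and 17 a negative log2 fold change in Smchd1 matdel. An unadjusted p under 0.05 was met by 2 of the 35, where 193 of all 14568 genes (1.32%) met it. These were Hoxa3 at 0.22 (SE 0.10) and Hoxd3 at -0.27 (SE 0.11), both with overlapping groups. The intervals were narrow for the anterior and middle genes: for all 27 of Hox1 to Hox9 the 95% interval lay within 1 log2 unit of no change, and for 22 within 0.5 log2 units. In the deposited log2 RPKM values, 20 of the 35 were higher in Smchd1 matdel at 8 somites and 16 at 9 somites, but 6 at both. All 20 at 8 somites were among the 27 genes of Hox1 to Hox9, and all 8 posterior genes were lower. At 9 somites most of the 27 were lower, and 6 of the 8 posterior genes were higher. The posterior values depended on single embryos, as described below.

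The step from 8 to 9 somites had larger values in these genes than genotype had. Its log2 value was above 0 in 29 of 35 Hox genes, and the median absolute size was 0.22 for the step and 0.09 for genotype, where all genes had 0.11 and 0.09. Among 34 of these Hox genes an unadjusted p under 0.05 for the step was met by 7, with Hoxc9 at 1.04, Hoxa6 at 1.01, Hoxd8 at 0.65, Hoxa9 at 0.58, Hoxc6 at 0.57, Hoxd9 at 0.47 and Hoxc8 at 0.35. Over all genes the step had 886 of 14568 (6.08%) at an unadjusted p under 0.05 and 0 past the adjusted threshold in edgeR, with 21 in DESeq2.

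**Figure D3:**
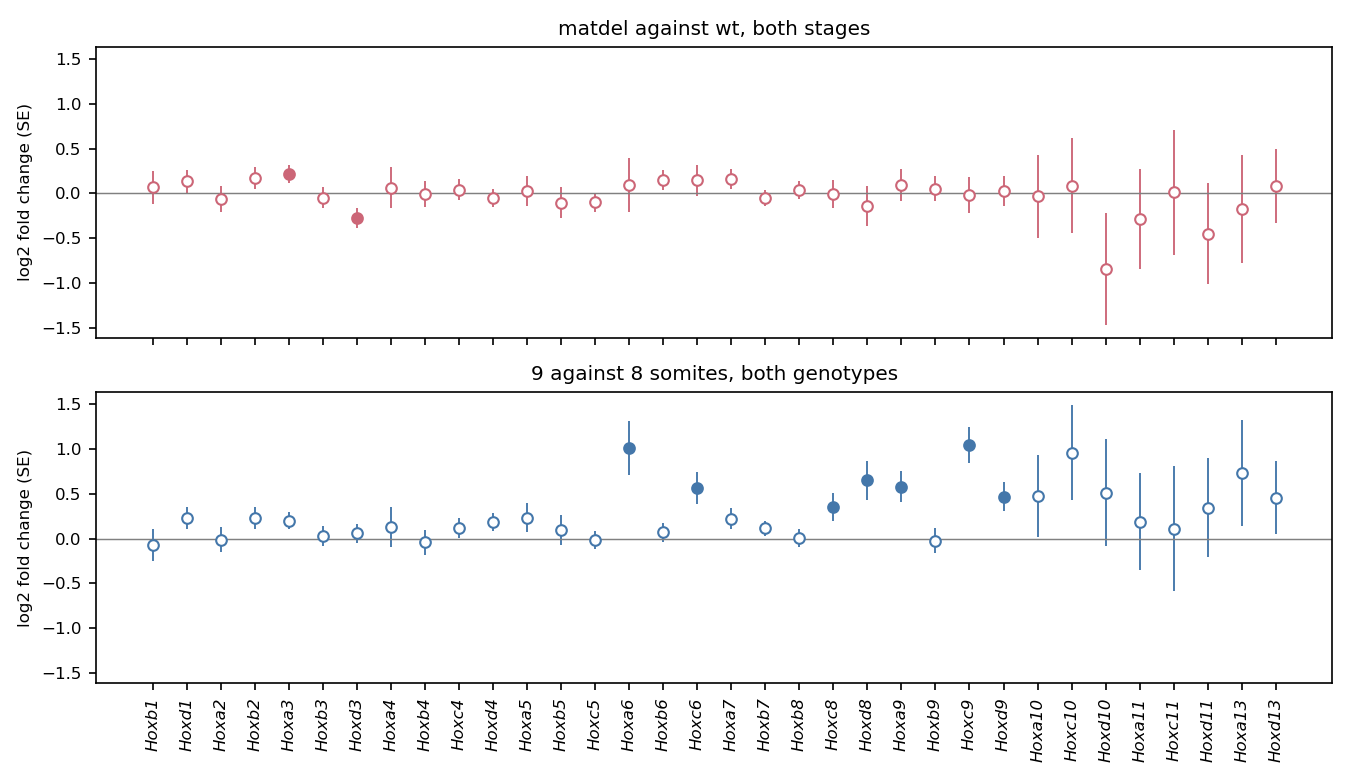
Log2 fold change (y axis, bars are 1 SE) of 34 Hox genes ordered by paralogue group, for genotype (top) and for 9 against 8 somites (bottom); filled points have an unadjusted p under 0.05. The genotype values lie on both sides of 0 with 2 filled points, the stage values lie above 0 for 29 genes with 7 filled points, and the bars widen from Hox10 on.

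The posterior genes Hox10 to Hox13 depended on which embryos were included. Their summed level was 32.1, 44.0 and 56.2 CPM in 8-somite Smchd1 wt and 37.3, 42.0 and 60.9 CPM in 9-somite Smchd1 wt. In Smchd1 matdel it was 48.6 and 4.87 CPM at 8 somites and 45.5 and 79.8 CPM at 9 somites. The 8-somite Smchd1 matdel replicate 2 was thus far below the other 9 embryos, with 0 counts of Hoxd10, Hoxc11, Hoxd11 and Hoxa13. The same embryo had a summed allantois list of 79.6 CPM against 167 to 275 CPM elsewhere, Tbx4, a hindlimb and allantois regulator, at 1.37 CPM against 15.1 to 60.2 CPM, and the imprinted RNA H19 at 3536 CPM against 4762 to 7104 CPM. How these move together with the Hox values was not tested. In these bulk samples fewer cells of a type and less RNA per cell cannot be told apart. Over the 8 posterior genes tested the median log2 fold change was -0.10 with all embryos, 0.36 without that embryo, -0.57 at 8 somites alone and 0.38 at 9 somites alone. It was -0.47 without the 8-somite Smchd1 matdel replicate 1, -0.39 without the 9-somite Smchd1 matdel replicate 2, -0.25 without the 9-somite Smchd1 wt replicate 1 and 0.04 without the 8-somite Smchd1 wt replicate 3. With a term for sex the median was -0.36, and the female embryos by themselves gave -0.37. All 4 Smchd1 matdel embryos were female, so the sex term rests on 3 male and 3 female Smchd1 wt embryos. A part of sex cannot be told apart from differences between those single embryos. Of the 8 genes, 0 were positive after adding that term and 1 among females, against 3 in the main fit. The median SE of these 8 genes in the main fit, 0.56, left 1 of 8 intervals within 1 log2 unit of no change.

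The deletion effect itself was compared between the 2 somite numbers. In the test of that difference, 0 of 14920 genes passed the adjusted threshold in edgeR and 0 in DESeq2, and 446 (2.99%) had an unadjusted p under 0.05.

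Over 34 lists of genes, 528 genes were tested, 20 of them (3.79%, against 1.32% of all genes) with an unadjusted p under 0.05, 11 higher and 9 lower. None passed the adjusted threshold in edgeR. The lists were chosen with earlier results of these data known, and the 20 include Smchd1, Fgf4, Grem1, Peg12 and Wnt5b. The 2 shares are therefore not a test of the lists. Over all genes, 6970 of 14568 had a positive log2 fold change. Members of a list can move together, so the counts of signs below are not counts of separate measurements. Among the streak and neuromesodermal progenitor genes, 9 of 11 had a positive log2 fold change, with a median of 0.13 over the list and -0.01 over all genes. T, which is needed for posterior mesoderm, measured 237, 200 and 169 CPM against 267 and 300 CPM at 8 somites, and 212, 245 and 262 CPM against 212 and 328 CPM at 9 somites. Its log2 fold change was 0.33 (SE 0.14), and the groups were apart at 8 somites and overlapped at 9 somites. Evx1, a homeobox gene of the streak, stood at 0.23 (SE 0.10). Over this list the median was 0.28 at 8 somites alone and -0.02 at 9 somites alone.

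Wnt3a, the ligand that sustains these progenitors, measured 58.8, 46.5 and 51.9 CPM against 73.6 and 81.0 CPM at 8 somites, and 52.7, 73.4 and 75.1 CPM against 76.2 and 71.8 CPM at 9 somites. The 8-somite groups were again apart and the 9-somite groups overlapped, with a log2 fold change of 0.35 (SE 0.13). With Wnt5b it was 1 of 2 Wnt pathway genes of 21 at an unadjusted p under 0.05, and 13 of the 21 were positive (median 0.09).

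In the FGF list 12 of 18 were positive, with Fgf4 and Fgf3 (0.24) higher and the receptor Fgfr2 (-0.24) lower at an unadjusted p under 0.05. In the Notch and segmentation clock list 13 of 17 were positive, and Heyl, a Notch target at no more than 1.14 CPM in any library, was lower at -1.11 (SE 0.51). The retinoic acid list had 10 of 16 positive. The BMP and Nodal list had 11 of 20 positive, with Nodal (0.54 CPM in Smchd1 wt and 1.45 CPM in Smchd1 matdel on average, log2 fold change 1.33) higher and Grem1 lower. Presomitic mesoderm (6 of 8 positive), node and notochord (7 of 9 positive, median 0.25) and neural tube genes (7 of 13) had no member other than T at that threshold.

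**Figure D4:**
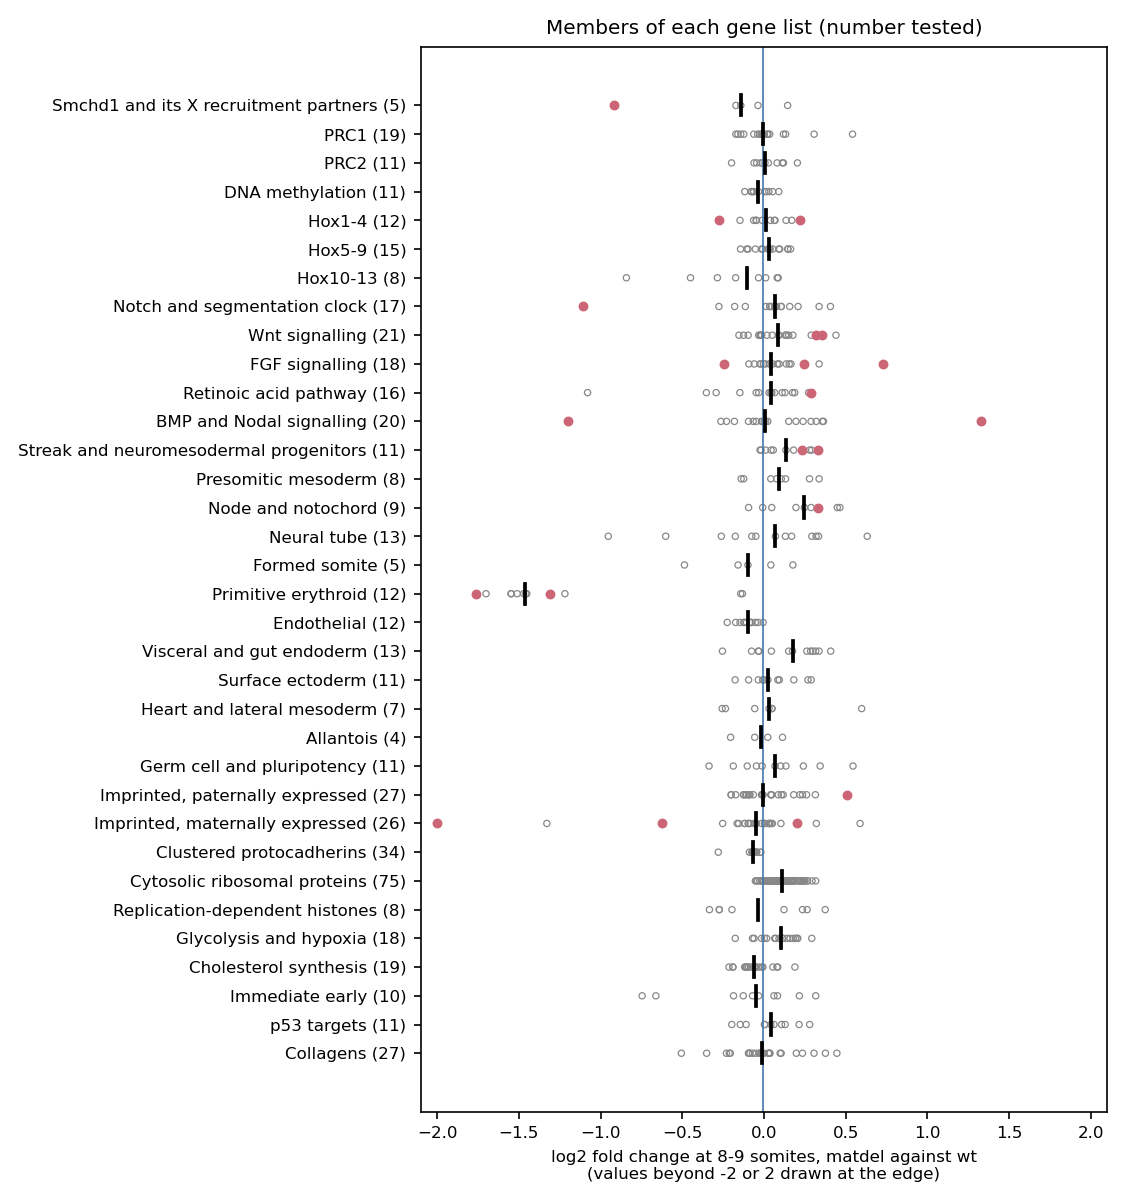
Log2 fold change (Smchd1 matdel over Smchd1 wt, x axis) of each tested member of the 34 lists; filled red points have an unadjusted p under 0.05, black bars are list medians and the blue line is the median of all genes. Most medians lie near that line, and the primitive erythroid list stands apart with a median of -1.46.

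SMCHD1 is known for silencing at imprinted regions and protocadherin clusters, so both were read as groups. Of 27 paternally expressed imprinted genes 12 were positive, the median was -0.01, and Peg12 alone was at an unadjusted p under 0.05. Of 26 maternally expressed genes 11 were positive and the median was -0.05. Tspan32 (0.223 to 3.48 CPM in Smchd1 wt and 0 to 0.427 CPM in Smchd1 matdel) and Klf14, a transcription factor gene (-0.62), were lower, and Commd1, a copper and trafficking factor, was higher (0.20), at that threshold. Tspan32 overlaps the antisense gene Tspan32os. All 34 tested clustered protocadherins were slightly negative, from -0.28 to -0.02, with a median of -0.06, and 0 met that threshold. Isoforms of the alpha and of the gamma cluster share constant exons, so the 34 values are not all separate measurements. The median of the list was 0.07 at 8 somites alone and -0.21 at 9 somites alone.

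Polycomb repressive complex 1 (19 genes, median -0.01), complex 2 (11 genes, median 0.01) and the DNA methylation machinery (11 genes, median -0.03) had 0 genes at an unadjusted p under 0.05. Cytosolic ribosomal protein genes were positive in 66 of 75, with a median of 0.11 and none at that threshold, and the median was 0.01 at 6-7 somites and -0.01 at 10-11 somites. Glycolysis and hypoxia genes were positive in 14 of 18 (median 0.10).

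Markers of blood and endoderm varied widely between embryos. All 12 primitive erythroid genes had a negative log2 fold change, with a median of -1.46, and 2 had an unadjusted p under 0.05, the erythroid factor gene Nfe2 at -1.76 and the globin gene Hba-a1 at -1.31. Their summed level was 103, 933 and 2014 CPM in 8-somite Smchd1 wt and 560, 1374 and 772 CPM in 9-somite Smchd1 wt. In Smchd1 matdel it was 83.0 and 249 CPM at 8 somites and 833 and 611 CPM at 9 somites, so the groups overlapped at both stages. All are markers of 1 cell lineage and are not separate measurements. The list's median was 0.39 at 6-7 somites and 0.81 at 10-11 somites, on the other side of 0. How blood content moves with the leading genes was not tested.

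Visceral and gut endoderm genes summed to 63.0 to 5258 CPM in Smchd1 wt and 59.2 to 2230 CPM in Smchd1 matdel, with 9 of 13 positive and 0 at an unadjusted p under 0.05. The endothelial list had 12 of 12 negative with a median of -0.10, and its mean had an SD of 0.25 log2 units between embryos of the same group. Surface ectoderm, heart and lateral mesoderm, and allantois genes had medians between -0.02 and 0.03. Neither the exact cut nor the amount of endoderm, blood and allantois carried along was recorded per embryo in the sources used here. How the dissection bears on these sums was not tested.

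**Figure D5:**
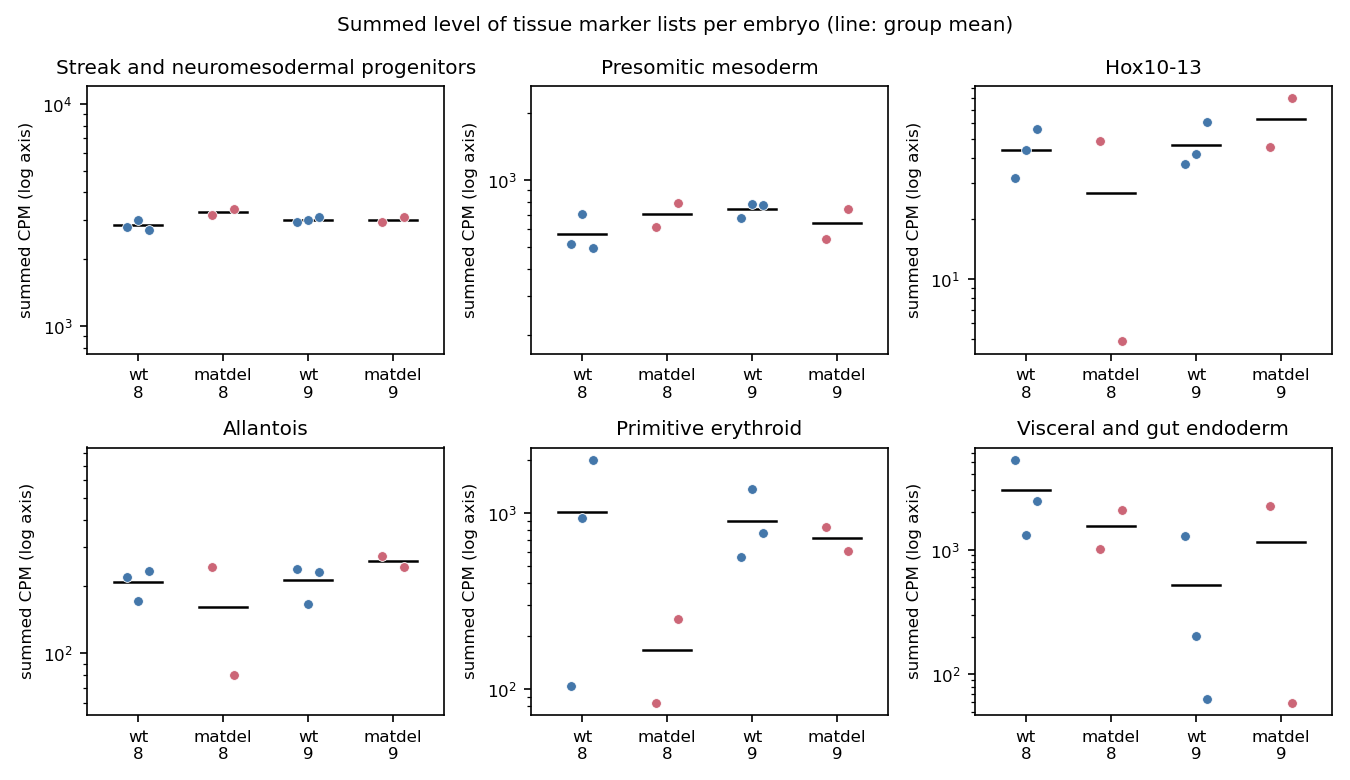
Summed level (CPM, log axis) of 6 marker lists in each embryo, by genotype and somite number. Endoderm and erythroid sums spread widely within both genotypes, and the 8-somite Smchd1 matdel replicate 2 is lowest for Hox10 to Hox13 and for the allantois.

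A somite number was also predicted from expression, with 365 genes that increased and 257 that decreased with age across the 15 Smchd1 wt embryos with other somite numbers. The predictions were 7.88 ± 1.22 (SD, n = 3) and 7.65 ± 0.597 (SD, n = 2) for 8-somite Smchd1 wt and Smchd1 matdel, and 9.55 ± 0.809 (SD, n = 3) and 9.25 ± 1.09 (SD, n = 2) for the 9-somite groups. Within a stage Smchd1 matdel differed from Smchd1 wt by -0.26 somites (two-sided exact permutation test, p = 0.64), and the smallest p possible was 0.01. In the training embryos the prediction missed the labelled number by an SD of 0.580.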

How the data were processed

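RNA-seq was made by the authors from tailbud tissue with TruSeq mRNA kits and 75-base single-end reads, trimmed with Trim Galore 0.4.4, mapped to GRCm38.p6 with HISAT2 2.0.5 and counted per gene in SeqMonk. The table used here holds the deposited raw counts, and the authors also deposited log2 RPKM values of Hox genes. A table of the authors' own comparisons was not used. From 35591 rows, 49 with repeated identifiers were dropped and 26 gene names turned into dates were restored, which left 33659 autosomal genes. Samples were grouped by the labels. The main test was edgeR 4.0.16 (quasi-likelihood, TMM, filterByExpr with a minimum count of 10) on somite number plus genotype, with Benjamini-Hochberg adjustment at 0.05; interaction, stage and 37-embryo fits used the same steps, and CPM has a prior count of 2 on the log2 scale. DESeq2 1.42.0 and the other alternatives are given below. Of the fits, the main edgeR genotype fit alone was run on simulated counts, and the outcome is not reported here. The members and lists were chosen with earlier results of these data known, and the p-values measure the spread between these embryos, whose litters are not given. Named genes are the 12 per direction with the smallest p and a mean of at least 1 CPM, Smchd1, the tested Hox genes, and from each other list up to 3 members with the smallest p. The extra genes named (the neighbours of Peg12, Tbx4, H19 and the endoderm genes), and the leading library genes, were chosen after their values were seen. Libraries held 9659259 to 80579115 counts, so genes of a few CPM rest on few reads and are measured less precisely. Some single genes of the lists are not reported here.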

Additional observations from a re-analysis of the deposited data

Results flagged for a closer look

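In 116 checks, of 24 genes and 34 summed lists in the 6 Smchd1 wt and the 4 Smchd1 matdel embryos, 7 had a single embryo far from the rest by Dixon's test on the linear or log2 scale; chance alone gives about 1 in 20 on either scale. Smchd1 was 215 CPM in the 8-somite Smchd1 wt replicate 2 against 148 to 172 CPM in the other Smchd1 wt embryos. Dedd2 was 20.2 CPM in the 9-somite Smchd1 matdel replicate 1 against 12.2 to 13 CPM in the other deleted embryos. Mpzl3 was 4.57 CPM in the 9-somite Smchd1 matdel replicate 2 against 6.31 to 6.72 CPM. Fam13a was 5.47 CPM in the 9-somite Smchd1 matdel replicate 1 against 7.69 to 8.07 CPM. Lyz2 was 11.7 CPM in the 8-somite Smchd1 wt replicate 1 against 0 to 0.908 CPM. The summed allantois genes were 79.6 CPM in the 8-somite Smchd1 matdel replicate 2 against 244 to 275 CPM. The summed cholesterol synthesis genes were 2048 CPM in the 9-somite Smchd1 matdel replicate 2 against 1411 to 1494 CPM. The check pooled both somite numbers, and the 9-somite Smchd1 wt embryos had 1811, 1845 and 2312 CPM for this list. The value of 2048 CPM thus lay within the Smchd1 wt range of its own stage. The causes of these 7 flagged values were not tested.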

How the results depend on the processing

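The count of genes past the adjusted threshold for genotype was 0 in edgeR, 2 in DESeq2 (Etnk2 and Smchd1), 1 without the filter on low counts (Smchd1) and 0 with RLE size factors, library sizes over all genes, sex as a covariate, females alone, each stage alone or any embryo left out. Counts at an unadjusted p under 0.05 were 428 without the filter, 393 at 8 somites alone, 163 at 9 somites alone, and 133 to 528 with 1 embryo left out (528 without the 9-somite Smchd1 matdel replicate 2 and 328 without replicate 1). The difference in effect between the stages had 0 to 1 gene with 1 embryo left out (Rufy3, without the 8-somite Smchd1 matdel replicate 1). The 9-against-8 step had 0 in edgeR, 21 in DESeq2 and 3 without the filter (Hoxc9, Insig1 and Nrarp), with 485 to 1228 genes at an unadjusted p under 0.05 when 1 embryo was left out. The comparison of windows had 0 in every alternative.

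The predicted somite difference ran from -0.65 to 0.12 with 1 embryo left out, above 0 without the 8-somite Smchd1 wt replicate 2 or the 9-somite Smchd1 matdel replicate 1. All 24 leading genes kept their sign in the alternatives in which they were fitted, but these reuse the embryos on which the genes were chosen. Uqcrc1 ran from 0.33 to 2.14 and Mbnl1 from -1.18 to -0.12. The medians of many lists lie close to 0 and change sign with the stage or embryo used.

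Replicate numbers are shared by the groups but the labels do not say that they pair embryos. Same-numbered embryos had correlations of 0.07 and 0.15 at 8 somites and 0.66 and 0.38 at 9 somites. Because the lowest was near 0 and no label ties them, the numbers were not taken as pairs. With a replicate block, 1 gene passed for genotype (Smchd1; 418 at an unadjusted p under 0.05), 0 for the difference between stages (560) and 0 for the comparison of windows (170). The 9-against-8 step could not be estimated with the block.

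Low-count genes, the posterior Hox genes above all, are limited by depth and by 4 deleted embryos: of the 8 posterior Hox genes tested, 1 had a 95% interval within 1 log2 unit of no change.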

Other observations

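Ddit4 (chr10:59949669-59951834) and Dnajb12 (chr10:59879556-59899302), a higher and a lower leading gene, lie 50366 bases apart, and Etnk2 and Rabif (chr1:134494648-134508774) lie 1114311 bases apart, again with opposite signs. The placental gene Prl8a2 was 49.7 CPM in the 8-somite Smchd1 wt replicate 1 and 0 to 7.06 CPM in the other 9 embryos, the same library that held most Lyz2 counts and the highest endoderm sum.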
